A study of Rattus norvegicus with 6 samples.

Results

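The cells described here were macrophages of the rat brain after pontine infarction that carried many transcripts of Gpnmb, Fabp5 and Spp1. They were chosen by a rule on counts of unique molecular identifiers (UMIs), the tags that count each captured transcript once. Barcodes under 500 UMIs, under 200 detected genes or over 20% mitochondrial UMIs were dropped. A kept barcode of an infarction library was a member when it held, per 10000 UMIs, at least 20 of Gpnmb and Fabp5 together, at least 100 of Spp1, fewer than 40 of C1qa, C1qb and C1qc together and fewer than 200 of S100a8 and S100a9 together. Fewer than 3 of the 5 interferon-induced genes Mx1, Ifit2, Ifit3, Cxcl10 and Rsad2 could be detected in it. The rule found 3875 members among 19445 kept cells of the infarction libraries and 38685 kept cells of the whole series. It was set on values of these same libraries, so the levels of its genes are given as a description, with no test.

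Macrophages that enter injured brain engulf dead cells and myelin, digest them in lysosomes and have to store, burn or export the lipid that this releases. Gpnmb is a membrane glycoprotein of the endolysosomal system, Fabp5 and Fabp4 carry fatty acids inside the cell, and Spp1 (osteopontin) is a secreted matrix protein. Apoe and Apoc1 are apolipoproteins that leave the cell with exported lipid, and the transporters Abca1 and Abcg1 load cholesterol onto them under the control of the oxysterol receptor Nr1h3 (LXR alpha).

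The series holds 6 single-cell libraries, 3 labelled sham and 3 labelled pontine infarction, made with droplet chemistry that reads the 3′ ends of transcripts. The animals were Sprague Dawley rats with the age label postnatal day 21, the tissue label is brain and the title names the pons. The labels give neither the time after infarction nor whether one library is one animal, and p-values therefore describe only how far these 3 libraries spread, which may in part be technical. Libraries held 56416475 to 69924334 UMIs, and kept cells had a median of 7334 to 9630 UMIs in each.

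Of the 43785 barcode sequences in the series, 226 occurred in more than 1 library. Among the members, 38 had a barcode that another library also held, and 14 shared it with a member of another library. Doublets were scored with Scrublet and were not removed for the main values. A score above 0.25 marked 25, 27 and 26 members in infarction libraries 1, 2 and 3.

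The members formed a similar part of each infarction library. They numbered 1267 of 5977 kept cells in infarction 1 (21.2%, exact 95% interval 20.2% to 22.3%). In infarction 2 there were 1312 of 7401 cells (17.7%, 16.9% to 18.6%), and in infarction 3 there were 1296 of 6067 (21.4%, 20.3% to 22.4%). Infarction 2 was the lowest and the other libraries lay close together, with a mean share of 20.1% ± 2.05 (SD, n = 3). The same rule applied to the sham libraries found 0 of 6025 cells in sham 1, 1 of 6484 in sham 2 and 0 of 6731 in sham 3, and a limit of 3 cells, taken for a count of 0, is a share of 0.0498% in sham 1 and 0.0446% in sham 3. These intervals and limits cover counting error only. Raising the depth limit to 2000 UMIs gave a mean share of 24.5%, and doubling the thresholds for Gpnmb with Fabp5 and for Spp1 gave 13.1%.

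**Figure D1:**
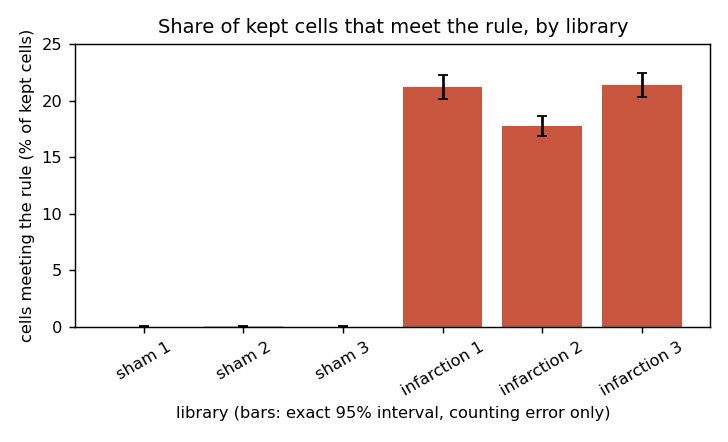
The bars give the percent of kept cells that met the rule in each of the 3 sham and 3 infarction libraries, with exact 95% intervals of counting error. The infarction libraries stand between 17.7% and 21.4%, and the sham libraries hold 1 such cell in all.

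Spp1 was the criterion that set the border of the population. Each of the other criteria was the only one failed by few cells, with 71 cells under the Gpnmb and Fabp5 threshold alone, 284 over the C1q threshold, 4 over the S100a8 and S100a9 threshold and 153 with too many interferon genes. By contrast, 5392 cells met every criterion except that for Spp1, and 41.8% of the 9267 cells that met the other criteria were members. Within 25% of the Spp1 threshold, 374 members lay inside it and 511 cells outside, and the nearest cells held 100.02 and 99.99 Spp1 UMIs per 10000. Members just inside and cells just outside the Gpnmb with Fabp5 threshold held 20.52 and 19.98 per 10000. The Spp1 threshold therefore drew a line through a continuous range, which is described further below, and was not a gap between populations.

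The rule genes stood at high levels in the members of all 3 libraries. Spp1 was at 40523, 31804 and 31968 UMIs per 1000000 (CPM) in the members of infarction 1, 2 and 3. Gpnmb was at 3818, 5017 and 5942 CPM and Fabp5 at 3922, 4489 and 5310 CPM. Infarction 1 was highest for Spp1 and lowest for Gpnmb and Fabp5. T cells of the same libraries held Spp1 at 4392, 915 and 202 CPM, again highest in infarction 1, and the part of free RNA in the Spp1 counts was not tested. The C1q genes were at 18.5 to 65.8 CPM and S100a8 and S100a9 at 20.3 to 46.0 CPM. Mx1 was at 11.1, 17.8 and 32.6 CPM, Ifit3 at 10.4 to 25.1, Ifit2 at 4.61 to 8.19, Cxcl10 at 1.39 to 4.84 and Rsad2 at 0.111 to 0.235 CPM.

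Markers that the rule did not use fitted a macrophage. All 13 measured macrophage and monocyte genes were above 5 CPM in the members as means of the 3 libraries, and counts under 5 CPM below use such means. Their summed levels were 16655, 17006 and 14889 CPM in infarction 1, 2 and 3. All kept cells had 16539, 16869 and 15893 CPM, the monocyte-like set 36334 to 39753 and the microglia-like set 10596 to 12271. The sum therefore does not single out the members. Among them Cd68, a lysosomal glycoprotein, was at 967, 937 and 991 CPM, while the F4/80 gene Adgre1 was at only 7.05 to 17.3 CPM. The 10 microglia markers summed to 82.2 to 124 CPM in the members, against 838 to 1137 CPM in the microglia-like set, and 8 of them were under 5 CPM. Tmem119 was at 0.940 to 2.39 CPM and P2ry12 at 0.188 to 0.333 CPM. Of the 7 perivascular macrophage markers 3 were under 5 CPM, Cd163 at up to 2.14 CPM and Lyve1 at 3.62 to 4.55 CPM, whereas Mrc1 (66.5, 126 and 169 CPM), Folr2 (161, 208 and 288 CPM) and Siglec1 (83.4, 81.2 and 118 CPM) were present.

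Most genes of other lineages were close to 0. As means of the 3 libraries, all 5 B cell, all 8 mural cell, all 6 fibroblast and all 6 neuron markers were under 5 CPM. So were 10 of 11 T or NK cell, 9 of 10 dendritic cell, 7 of 10 neutrophil and 3 of 6 astrocyte markers. The fibroblast list summed to 1.27, 0.889 and 17.4 CPM in infarction 1, 2 and 3, and members held 54.8% of the Col1a1 UMIs in infarction 3. The astrocyte list summed to 14.1, 27.7 and 36.9 CPM. The oligodendrocyte list summed to 63.2, 81.1 and 183 CPM in the members of infarction 1, 2 and 3, and was highest in infarction 3 in all kept cells too (154, 224 and 716 CPM). Erythrocyte markers summed to 89.3 CPM in infarction 1 and to 2.06 and 1.73 CPM in the others. The part of such transcripts in the results was not tested beyond the repeats without these cells given below.

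Among the stated markers, Apoc1 and Fabp4 were outside the rule but had been named from these data, so their levels too are a description. Apoc1 was at 201, 297 and 246 CPM in the members of infarction 1, 2 and 3, against 3.37 to 18.9 CPM in the monocyte-like set, 4.77 to 9.82 CPM in the microglia-like set and 0 to 2.51 CPM in T cells. Fabp4 was at 1092, 1087 and 1029 CPM, against 56.1 to 149 CPM in the monocyte-like set and 46.7 to 66.6 CPM in the microglia-like set. In every infarction library both genes were higher in the members than in those sets, and the members' and the sets' ranges did not overlap. Ranges also did not overlap for 49.2% of all genes tested against the monocyte-like set and 67.9% against the microglia-like set. T cells of infarction 1 held Fabp4 at 417 CPM and those of infarction 2 and 3 at 18.0 and 52.3 CPM.

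**Figure D2:**
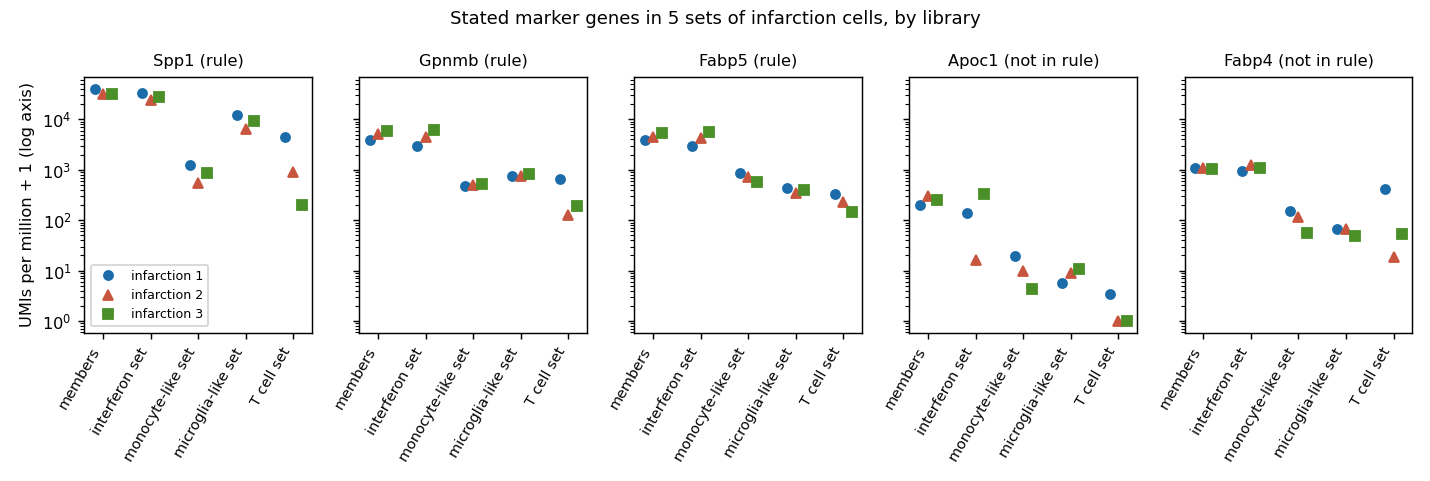
Levels of the 5 stated marker genes, as CPM plus 1 on a log axis, in 5 sets of infarction cells, with 1 point for each library. In each panel the members and the interferon set lie above the monocyte-like, microglia-like and T cell sets, with 1 exception, the interferon set of infarction 2 for Apoc1, which rests on 12 cells.

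Over all kept cells the same 5 genes separated infarction from sham libraries. Summed over cells, Spp1 was at 11512 to 17771 CPM in infarction and 20.2 to 38.7 CPM in sham, Gpnmb at 2217 to 3599 against 3.82 to 6.71, Fabp5 at 2065 to 2996 against 28.2 to 65.0, Apoc1 at 77.1 to 139 against 4.29 to 7.70 and Fabp4 at 445 to 495 against 0.489 to 3.15 CPM. The members held 32.0% ± 3.43 of all UMIs of the infarction libraries (SD, n = 3). They held 76.8% ± 1.07 of the Spp1 UMIs, 72.7% ± 14.4 of Apoc1, 71.4% ± 3.16 of Fabp4, 67.2% ± 8.75 of Apoe and 65.1% ± 7.78 of Fabp3. Shares of Fabp5 (59.95%), Siglec1 (59.2%), the chemokine Ccl7 (57.1%), galectin 3 (Lgals3, 57.1%) and Gpnmb (55.8%) were lower, and cells outside the rule held the rest. For arginase 1 (Arg1) the members held 63.4% of the UMIs in infarction 1 but 45.3% and 48.9% in infarction 2 and 3.

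The promoter of Gpnmb is shown because it carries the motif of the MiT/TFE family, the factors that switch on lysosomal genes and that are measured below. The sequence holds the 250 bases before the annotated start, from RefSeq on build GRCr8, chr4:79340878-79341127 on the plus strand, 5′ to 3′, and capitals mark the motifs found.
Gpnmb: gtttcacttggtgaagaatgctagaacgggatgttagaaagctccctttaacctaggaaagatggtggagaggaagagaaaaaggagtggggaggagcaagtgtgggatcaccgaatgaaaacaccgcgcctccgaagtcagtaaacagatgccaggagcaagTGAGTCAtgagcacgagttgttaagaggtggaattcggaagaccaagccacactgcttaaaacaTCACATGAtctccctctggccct
Spp1: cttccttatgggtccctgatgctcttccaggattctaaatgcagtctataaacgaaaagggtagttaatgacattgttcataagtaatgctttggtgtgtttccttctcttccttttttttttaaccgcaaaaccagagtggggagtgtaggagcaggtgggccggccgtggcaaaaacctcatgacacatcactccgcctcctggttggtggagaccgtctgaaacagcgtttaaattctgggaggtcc
The M-box of the MiT/TFE family, TCACATGA or TCATGTGA on the other strand, began 23 bases before the Gpnmb start, and the AP-1 motif, TGAGTCA or TGACTCA, began 87 bases before it. Of all 33469 promoter windows of this length, 0.977% held the M-box and 4.05% the AP-1 motif, and these motifs do not overlap in the Gpnmb window. The Spp1 window (chr14:5619805-5620054, minus strand) and both windows of Apoc1 held neither, and 3 of the 5 stated markers had a window in the table. A match is a description of letters, not of binding, and the absence of one says only that these letters are not in this window.

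The members were compared with 3 other sets of cells of the same infarction libraries, with UMIs summed per library and set. The monocyte-like set (102, 112 and 87 cells) had UMIs of both Fcnb, the ficolin of circulating monocytes, and Vcan, with Gpnmb and Fabp5 under the threshold and the members' limits on C1q, S100 and interferon genes. The microglia-like set (715, 1116 and 732 cells) had C1q over the threshold, a UMI of a microglia marker, few of the border macrophage genes Mrc1, Lyve1 and Cd163, and the same limits on S100 and interferon genes. The interferon set (42, 12 and 99 cells) met the member rule except that 3 or more of the interferon genes were detected. All sets were chosen by expression, so the tests say which other genes differ between cells so chosen, in every library, and not which cells gave rise to which. Values beside the tests are CPM after TMM scaling (normalised CPM), log2 fold changes are of members over the other set with their standard error (SE), and a gene was called at an adjusted p under 0.05.

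Against monocyte-like cells, the members held far more transcripts for lipid uptake, lipid export and lysosomal digestion and fewer for antigen presentation, cholesterol synthesis and interleukin 1 beta. Of 9427 genes tested outside the rules, 1695 (18.0%) were higher and 1796 (19.1%) lower in the members, 37.0% in all. The libraries of the 2 sets did not overlap for 49.2% of the genes tested. Median depth was 12636 to 15689 UMIs in the members and 8031 to 10824 in the monocyte-like set, and with every cell thinned to 5000 UMIs, an alternative chosen after seeing the data, 1248 genes were higher and 1448 lower.

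Of 10 tested genes for scavenger receptors and lipid uptake, 6 were higher and 2 lower, with a median log2 fold change of 0.64 against 0.02 over all genes tested. The 6 include the stated marker Fabp4, which was named from these data and lends the list no support. Lipoprotein lipase (Lpl), which frees fatty acids from lipoproteins, was at 24.7, 23.6 and 25.6 normalised CPM in the members of infarction 1, 2 and 3 and at 0.810, 1.01 and 1.15 in the monocyte-like set. It was the gene with the largest rise among those the rule for naming picked (log2 fold change 4.65, SE 0.42, adjusted p = 1.13e-07). That rule required no overlap between the sets. Fabp3, another fatty acid carrier, rose by 3.12 (SE 0.25, adjusted p = 2.55e-08), and the lysosomal receptor Scarb2 rose by 1.66 (SE 0.18, adjusted p = 1.10e-06).

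Most tested lipid export genes were higher. Of 13 genes of lipoprotein and cholesterol efflux, 8 were higher, 1 was lower and 4 were not called (median 0.82). The 8 include the stated marker Apoc1, which was named from these data and lends the list no support. Apoe was at 12794, 20463 and 19000 normalised CPM in the members and at 1247, 944 and 434 in the monocyte-like set. The sets did not overlap, and the log2 fold change was 4.38 (SE 0.65, adjusted p = 0.0441), but the call was lost without infarction 1 (adjusted p = 0.103) or infarction 2 (0.269) and with no filter on low counts (0.0851). Abca1 was at 155, 173 and 214 against 34.8, 49.7 and 46.0 normalised CPM and rose by 2.05 (SE 0.13, adjusted p = 1.38e-09). Abcg1 rose by 1.40 (SE 0.15, adjusted p = 7.38e-07) and the cholesterol carrier of the lysosome Npc2 by 0.87 (SE 0.07, adjusted p = 6.52e-08). Mylip, a ubiquitin ligase induced by oxysterol receptors, fell (log2 fold change -1.13, SE 0.13, adjusted p = 1.40e-06). For the stated markers, given without a test, the log2 fold change was 4.37 (SE 0.39) for Apoc1 and 3.27 (SE 0.29) for Fabp4.

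Genes for making cholesterol and storing triglyceride went the other way. Of 17 cholesterol synthesis genes none was higher and 8 were lower (median -0.73). Srebf2, the transcription factor of this pathway, had a log2 fold change of -1.66, Msmo1 of -1.59 and Insig1 of -1.10, all called. Of 10 genes of lipid droplets and triglyceride turnover 1 was higher and 4 were lower. The acyltransferases Gpat3 (log2 fold change -1.33, adjusted p = 4.47e-06) and Dgat2 (-0.95, adjusted p = 0.000253) fell. Plin2, the coat protein of lipid droplets, was at 412, 284 and 256 normalised CPM in the members against 589, 441 and 678 (log2 fold change -0.85, SE 0.20, adjusted p = 0.0360), a call that was lost without infarction 2 (adjusted p = 0.0840) with doublets removed (0.0702) and with at most 10% mitochondrial UMIs (0.0690).

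Lysosomal genes were higher in most cases. Of 24 genes of the lysosome list 17 were higher and 2 lower (median 0.79). Cathepsin B (Ctsb) was at 3951, 3735 and 4687 normalised CPM in the members and at 1316, 1041 and 1287 in the monocyte-like set (log2 fold change 1.76, SE 0.07, adjusted p = 2.39e-12). Cathepsin D (Ctsd) rose by 1.83, the membrane protein Cd63 by 1.61 and cathepsin L (Ctsl) by 1.19. None of the 4 overlapped between the sets, and neither did 49.2% of all genes tested. Of the MiT/TFE factors, Tfec fell (log2 fold change -1.35, adjusted p = 0.000322), whereas Tfeb (0.33, adjusted p = 0.0970) and Mitf (0.23, adjusted p = 0.173) were not called. Both were called with no filter on low counts (adjusted p = 0.0214 and 0.0269), and Tfeb also without TMM (0.0466) and with doubled thresholds (0.0431).

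Iron handling and respiration followed the same direction. Of 12 genes of iron and haem 8 were higher and 1 lower (median 0.74), with ferritin light chain (Ftl1) at 1265, 1006 and 1065 against 574, 544 and 554 normalised CPM (log2 fold change 0.99, SE 0.07, adjusted p = 9.82e-09). The haem transporter Slc48a1 rose by 1.51 and the ferrireductase Steap3 by 1.92. Of 19 nuclear genes of the respiratory chain 11 were higher and none lower, all by small amounts (median 0.28), with Atp5mc1 at 0.74 and Cox6a1 at 0.71. Hypoxia and glycolysis genes were higher in 12 of 23 and lower in 4, led by the mitophagy gene Bnip3, at 229, 142 and 122 against 76.1, 37.5 and 28.7 normalised CPM (log2 fold change 1.81, SE 0.13, adjusted p = 8.29e-09). Bnip3 was highest in infarction 1 in both sets.

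Transcripts of cytokines and chemokines differed from those of the monocyte-like cells in both directions. Of 22 such genes 4 were higher, 8 were lower and 10 were not called (median -0.21). Of all genes tested, 18.0% were higher and 19.1% lower. Interleukin 1 beta (Il1b) was at 166, 65.8 and 42.8 normalised CPM in the members and at 755, 333 and 282 in the monocyte-like set (log2 fold change -2.40, SE 0.10, adjusted p = 1.59e-11). Ptgs2, the prostaglandin synthase, fell too (-1.57, adjusted p = 3.83e-07). The growth factor of macrophages Csf1 was at 71.4, 63.8 and 44.2 against 12.1, 10.1 and 8.04 normalised CPM (log2 fold change 2.56, SE 0.20, adjusted p = 1.46e-08). The chemokine Pf4 rose by 3.32 (adjusted p = 0.000112) and the TNF family ligand Tnfsf12 by 2.02 (adjusted p = 2.51e-08). Il1b was called with the library as a block, and without the block it had an adjusted p of 0.0819.

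Antigen presentation was the list with the lowest median. Of 8 genes of MHC class II presentation none was higher and 6 were lower (median -1.78). The invariant chain Cd74 was at 1058, 1352 and 997 normalised CPM in the members and at 3186, 4463 and 2349 in the monocyte-like set (log2 fold change -1.52, SE 0.08, adjusted p = 1.03e-08). RT1-Ba (-1.93), RT1-Da (-1.82) and the transactivator Ciita (-3.35) fell as well, though Ciita lost its call without infarction 2 (adjusted p = 0.0623). Of 20 proliferation genes 8 were lower and none higher, but with cells holding a UMI of Mki67 or Top2a removed 1 was higher and 1 lower of 13 tested.

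Efferocytosis genes, which recognise and engulf dying cells, split. Of 12 tested, 5 were higher and 2 lower. The bridging protein Gas6 was at 33.9, 49.2 and 65.4 against 7.29, 3.04 and 4.60 normalised CPM and rose by 3.20 (SE 0.28, adjusted p = 8.28e-08). Its receptor Mertk rose by 2.75 (adjusted p = 2.70e-06) and the lipid-sensing receptor Trem2 by 1.67 (adjusted p = 3.86e-08). Mfge8, another bridging protein, fell (log2 fold change -2.35, adjusted p = 2.19e-06). Of 22 genes of matrix, proteases and growth factors 7 were higher and 7 lower. Lgals3 was at 5962, 6078 and 6563 against 2124, 1868 and 2201 normalised CPM (log2 fold change 1.59, SE 0.06, adjusted p = 2.05e-12), and Timp2 rose by 1.44, while Tgfbi fell (-1.04, adjusted p = 1.27e-08).

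Arginine and antioxidant genes also went both ways. Of 10 genes of arginine and polyamines 4 were higher and 2 lower, with the ornithine decarboxylase Odc1 up by 0.89 and the argininosuccinate synthase Ass1 at 8.40, 15.2 and 10.0 against 30.8, 89.2 and 58.6 normalised CPM (log2 fold change -2.36, SE 0.18, adjusted p = 2.01e-08). Of 15 antioxidant genes 3 were higher and 5 lower, with Prdx1 up by 1.31 and the thioredoxin reductase Txnrd1 at -1.64. In the list of PPAR and fatty acid oxidation 5 of 16 genes were higher and 1 lower. Angptl4 had the smallest p, at 42.8, 53.5 and 50.8 against 8.91, 13.2 and 8.04 normalised CPM (log2 fold change 2.27, SE 0.21, adjusted p = 1.41e-07). The lower gene was Ppard (-1.79, SE 0.20, adjusted p = 1.44e-06). The oxidation gene Acadl rose by 0.45 (adjusted p = 0.00792), a call lost without infarction 2 (0.0784) and with cells thinned to 5000 UMIs (0.147).

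Beyond the lists, the naming rule, which required no overlap, added 4 genes among the largest rises. They were the serotonin receptor Htr2b (log2 fold change 4.65, SE 0.40), the membrane glycoprotein Cd200 (4.39, SE 0.26), Syngr1 (4.24, SE 0.39) and the sialic acid receptor Siglec1 (3.96, SE 0.28). Among the largest falls were Mal, at 3.35, 5.01 and 2.96 against 154, 218 and 290 normalised CPM (log2 fold change -5.85, SE 0.22, adjusted p = 7.48e-08), Rnase2 (-5.36), the nucleotide hydrolase Samhd1 (-4.76) and the pyrin gene Mefv (-4.47). Nfe2, Plxdc2, Klrk1, Prrt1 and Cd244 followed with log2 fold changes of -4.43 to -3.49. Of 7 monocyte genes outside the rules 3 were lower, among them Cd44 and Clec4a1, and F13a1 was higher (1.52, adjusted p = 6.13e-06), with F13a1 at 131, 73.6 and 66.2 against 63.2, 17.2 and 16.1 normalised CPM. Without the library block neither F13a1 (adjusted p = 0.142) nor Clec4a1 (0.201) was called, and Cd44 was not called with at most 10% mitochondrial UMIs (0.126).

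**Figure D3:**
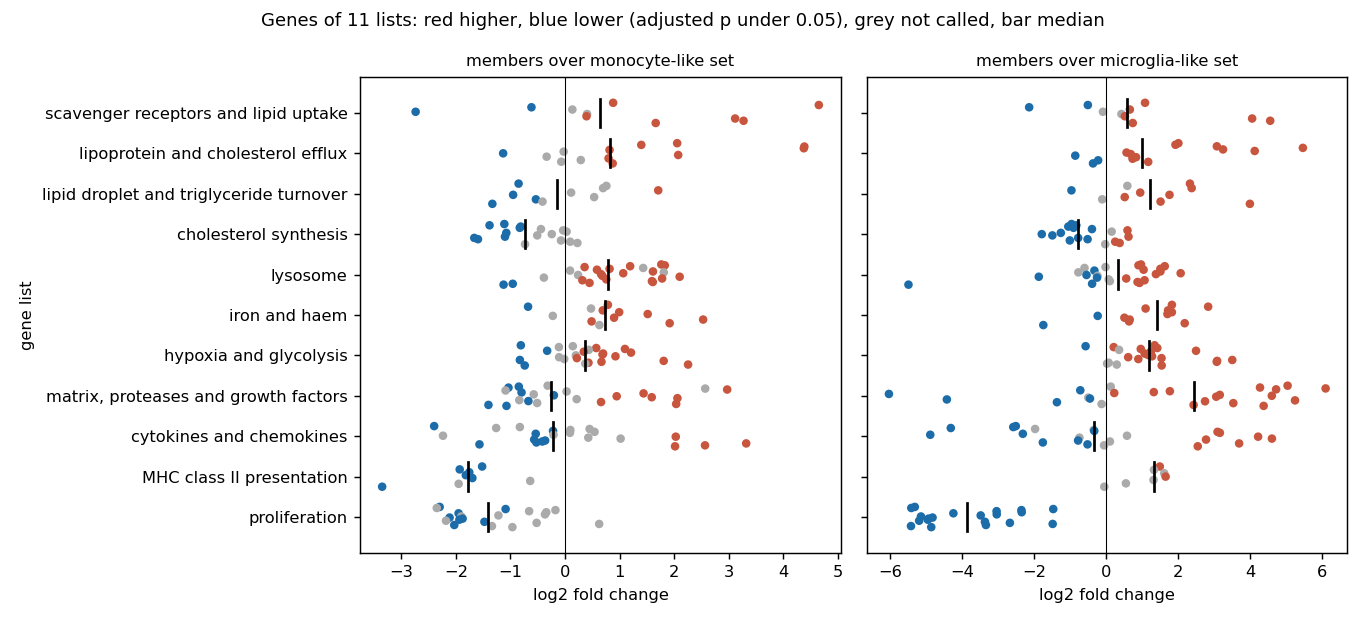
Each point is the log2 fold change of a gene of 11 lists, in members over monocyte-like cells on the left and over microglia-like cells on the right, coloured where called at an adjusted p under 0.05. The black bar is the list's median, from -1.78 for MHC class II presentation to 0.82 for efflux on the left, and from -3.86 for proliferation to 2.43 for matrix genes on the right.

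Against microglia-like cells the difference was broader. Of 10615 genes tested, 3421 (32.2%) were higher and 3617 (34.1%) lower in the members, 66.3% in all, so a call in this comparison carries little weight for a single gene. The split rests on the scaling: without TMM factors 1868 genes were higher and 5750 lower, with the median of all genes at -0.41 instead of -0.03 on the log2 scale. The counts below are with TMM, and lists for which the scaling changed the balance are named.

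Lipid export and storage were both higher in the members than in microglia-like cells. Of 14 efflux genes 11 were higher and 3 lower, and the 11 include the stated marker Apoc1, which was named from these data. Apoe was at 14896, 23938 and 22292 normalised CPM in the members and at 1791, 2631 and 2837 in the microglia-like set (log2 fold change 3.07, SE 0.06, adjusted p = 2.96e-10). The oxysterol receptor Nr1h3 was at 55.8, 60.1 and 46.4 against 2.74, 3.50 and 3.17 (4.12, SE 0.12, adjusted p = 3.23e-09), and Abca1 rose by 2.01 (adjusted p = 1.14e-08). Of 10 droplet and triglyceride genes 7 were higher and 1 lower, with Plin2 at 480, 332 and 300 against 90.7, 64.1 and 65.7 normalised CPM (log2 fold change 2.32, SE 0.07, adjusted p = 3.84e-09) and Gpat3 up by 3.99. Plin2 and Gpat3 were thus above microglia-like and below monocyte-like cells. Cholesterol synthesis was lower in 11 of 17 genes and higher in 4 (median -0.78), with Cyp51 at -1.26 and Sqle at -1.05.

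In the lysosome list 12 of 24 genes were higher and 6 lower. The proton pump subunit Atp6v1a was at 159, 167 and 170 against 39.6, 39.9 and 38.6 normalised CPM (log2 fold change 2.07, SE 0.07, adjusted p = 6.61e-09), and Cd63 rose by 1.51. Cystatin C (Cst3), a protease inhibitor, was at 363, 552 and 492 against 14734, 24554 and 24488 (log2 fold change -5.49, SE 0.07, adjusted p = 2.63e-10). Without TMM the list had 12 genes higher and 11 lower, and the respiratory chain list went from 16 higher and 1 lower of 20 to 3 and 3, so no direction is given for either. Mitf, of the MiT/TFE factors, was at 129, 121 and 74.5 against 13.9, 13.9 and 12.4 normalised CPM (3.00, SE 0.12, adjusted p = 8.93e-08), and Tfeb rose by 1.57 (adjusted p = 1.96e-06), both in the 4 measured genes of the family.

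Genes of matrix, proteases and growth factors were mostly higher. Of 23 genes, 15 were higher and 5 lower (median 2.43). Vimentin (Vim) was at 7345, 6302 and 6789 against 809, 770 and 717 normalised CPM (log2 fold change 3.15, SE 0.06, adjusted p = 3.23e-10). Galectin 1 (Lgals1) rose by 4.60, Tgfbi by 4.27 and Cd44 by 2.74. The elastase Mmp12 was at 119, 77.4 and 237 against 1.40, 2.26 and 2.19 (6.09, SE 0.29, adjusted p = 4.56e-05), highest in infarction 3. Arg1, of the arginine and polyamine list, was at 596, 281 and 312 against 10.9, 8.95 and 9.09 (log2 fold change 5.31, SE 0.17, adjusted p = 1.14e-06), highest in infarction 1.

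Cytokine and chemokine genes went both ways, with 7 of 22 higher and 9 lower. These shares are near those of all genes tested, 32.2% higher and 34.1% lower. The genes given next are all rises and do not stand for the list. Of the Ccl3 and Ccl4 UMIs of the infarction libraries, the members held 8.03% and 3.60% as means, against 32.0% of all UMIs. Ccl7 was at 2820, 1866 and 2067 against 144, 115 and 103 normalised CPM (log2 fold change 4.22, SE 0.08, adjusted p = 3.82e-10), and the monocyte attractant Ccl2 rose by 3.16 and Pf4 by 3.69. Iron and haem genes were higher in 10 of 12 and hypoxia and glycolysis genes in 18 of 23 (median 1.40 and 1.19), with biliverdin reductase Blvra up by 2.83 and Ndrg1 up by 3.07. Efferocytosis genes were lower in 10 of 14 and higher in 1 (median -1.47). Trem2 was at 108, 124 and 172 against 295, 271 and 366 normalised CPM (log2 fold change -1.22, SE 0.08, adjusted p = 7.86e-07), Mertk fell by 1.05 on the log2 scale and the bridging protein Pros1 had a log2 fold change of -5.71. Trem2 and Mertk therefore lay between monocyte-like and microglia-like cells.

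Cell division separated the sets most completely. All 20 proliferation genes were lower in the members (median -3.86), with the thymidine kinase Tk1 at 1.65, 1.58 and 2.71 against 58.9, 55.3 and 58.7 normalised CPM (log2 fold change -4.85, SE 0.15, adjusted p = 5.62e-09). With cells holding Mki67 or Top2a removed from both sets, 17 of 18 were still lower and 1 was higher. MHC class II genes were higher in 2 of 7, Cd74 (log2 fold change 1.49, adjusted p = 0.0345) and RT1-Da (1.65, adjusted p = 0.0476). That is no larger a share than the 32.2% of all genes tested that were higher. Neither Cd74 nor RT1-Da kept its call without TMM (adjusted p = 0.0640 and 0.0788) or without infarction 1 (0.135 and 0.151). Among other settings, RT1-Da was also not called without infarction 2 (0.112) or with doubled thresholds (0.0626). RT1-Bb and RT1-Ba, not called in the main fit, were called higher with DESeq2 (0.00257 and 0.0106) and without the library block (0.0122 and 0.0135). The other rises with the largest fold were Pla2g2d (6.46), Prg4, Cldn4 (5.42) and Emp1 (5.32). The largest falls were Grxcr1 (-7.30), the leukotriene synthase Ltc4s (-6.66), the channel Trpc6 (-6.63), Anxa3 (-6.37), Gal3st4 (-6.37) and Spint1 (-6.09). The naming rule required no overlap between the sets, which 67.9% of all genes tested had. Prg4 lost its call without infarction 3 (adjusted p = 0.140).

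The interferon set meets the member rule apart from the interferon genes, so it is close to the members by construction. It had fewer than 20 cells in infarction 2, which was left out, so 2 libraries a set entered the fit, and its counts cannot be set against those of the fits with 3. Of 9780 genes tested, 17 (0.174%) were higher and 233 (2.38%) lower in the members, 2.56% in all, and 897 had an unadjusted p under 0.05. Without the library block the counts were 0 and 80, with DESeq2 1 and 136. The largest falls were interferon-induced genes, as the 5 genes of the rule are, so their direction is what the rule selects: Isg15 was at 23.1 and 29.96 normalised CPM in the members of infarction 1 and 3 against 666 and 596 (log2 fold change -4.57, SE 0.15), and Cxcl11 (-9.71, not called without the library block), Mx2 (-4.85), Cmpk2 (-4.72), Zbp1 (-4.50) and Apol9a (-4.07) followed. The largest rises were small, from 0.60 for Pdpn to 0.87 for Dnajc21, with Farsb, Hdac2, Nomo1 and Matk between them. None of these 6 was called without the library block (adjusted p = 0.389 to 0.734) or with DESeq2, and 8 of the 12 alternatives that were run moved the count of higher genes by more than 1.5 times.

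Few lipid genes were called between the members and the interferon set. Fabp4 was at 1139 and 1020 normalised CPM against 939 and 1083, Apoc1 at 210 and 244 against 134 and 322, and Apoe at 13286 and 19681 against 6984 and 19118 (log2 fold change 0.48, SE 0.17, adjusted p = 0.163). In the lists of lipid uptake and of efflux 1 gene each was called, the oxidised lipoprotein receptor Olr1, at 123 and 57.3 against 184 and 94.8 (log2 fold change -0.66, adjusted p = 0.000944), and the cholesteryl ester hydrolase Nceh1, at 51.7 and 48.3 against 70.9 and 74.7 (-0.56, adjusted p = 0.0452). Neither Olr1 (adjusted p = 0.997) nor Nceh1 (0.701) was called without the library block. Olr1 was also not called with DESeq2 (0.104). Among other settings, Nceh1 was not called with doublets removed (0.0645), at least 2000 UMIs (0.0612) or doubled thresholds (0.733). Apoe was called with doubled thresholds (log2 fold change 0.48, adjusted p = 0.00664) and Lpl with infarction 2 added (0.89, adjusted p = 0.0345). None of the lipid droplet, PPAR and fatty acid oxidation, cholesterol synthesis, iron, hypoxia or respiratory chain lists had a gene called. Among genes called in other lists, the receptor Axl was at 5.93 and 5.46 against 48.6 and 15.6 (log2 fold change -2.27, SE 0.31, adjusted p = 4.22e-07), interleukin 18 (Il18) at 60.3 and 90.3 against 129 and 171 (-0.99, adjusted p = 7.96e-08) and Pf4 at 318 and 581 against 146 and 364 (0.87, adjusted p = 3.15e-06). The MHC class II genes RT1-Ba, RT1-Db1 and RT1-Bb were lower by 0.57 to 0.58 on the log2 scale. All 6 of these calls were lost without the library block, with adjusted p of 0.253 for Axl, 0.303 for Il18, 0.918 for RT1-Db1 and 0.997 for Pf4, RT1-Ba and RT1-Bb. Without cells holding UMIs of other cell types the log2 fold change of Pf4 was 0.35 (adjusted p = 0.576), and with doublets removed RT1-Ba (0.182), RT1-Db1 (0.0692) and RT1-Bb (0.164) were not called.

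Cells that met every criterion but Spp1 were set in 5 bins of Spp1, with only cells of at least 5000 UMIs and with Spp1 left out of the totals, and values here are plain CPM. The bins held 1009, 704, 1591, 1973 and 1740 such cells, from under 10 Spp1 UMIs per 10000 to 300 and over, and the 2 upper bins are members. No test was made, since Spp1 chose the cells. Median depth in the lowest bin was 9128 to 10998 UMIs and in the highest bin 12944 to 16326, and the median of Gpnmb with Fabp5 rose along the bins as well, from 40.8 to 79.4 per 10000 in infarction 1, from 46.9 to 105 in infarction 2 and from 45.6 to 121 in infarction 3.

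Several lipid genes, chosen as examples after their values were seen, climbed with Spp1 through and beyond the threshold. Apoe went from a mean of 4467 CPM in the lowest bin through 6965, 9592 and 14913 to 22835 in the highest. In infarction 1 it went from 1182 to 16914 CPM, in infarction 2 from 6013 to 27124 and in infarction 3 from 6205 to 24468, and infarction 1 was the lowest library in every bin. Fabp4 had bin means of 251, 302, 503, 851 and 1410 CPM, and Lpl of 3.37, 5.27, 7.16, 16.5 and 37.4. Apoc1 stayed near 80 CPM in the 2 lower bins (80.0 and 79.3) and then reached 119, 173 and 352. Trem2 went from 34.8 to 143 CPM and Siglec1 from 29.5 to 106, each rising at every step.

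Other genes differed mainly between the highest bin and the rest, or had no single direction. Cathepsin K (Ctsk), a collagen-degrading protease, had means of 0.889, 0.888, 1.36 and 4.39 CPM in the first 4 bins and 21.6 in the highest, where the libraries held 20.9, 22.5 and 21.5. Csf1 was at 28.3, 23.7, 22.8 and 37.7 CPM and then at 90.0. Cd9, a tetraspanin, was at 152 CPM in the lowest bin, at 46.8 in the middle bin and at 197 in the highest, so it did not follow a single direction.

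Monocyte and antigen presentation genes fell along the same axis. Fcnb had bin means of 502, 348, 260, 108 and 54.4 CPM. RT1-Da went from 2800 through 1607 in the middle bin to 467 CPM and Cd74 from 3385 to 827 CPM. Lysozyme (Lyz2) dropped from 13212 to 5601 CPM and the chemokine Cxcl3 from 913 to 196 CPM as means, although in infarction 1 it was 679 CPM in the middle bin and 725 in the next. Arg1 (255, 360, 343, 373 and 340 CPM) and the haem oxygenase Hmox1 (532, 658, 749, 807 and 713 CPM) were lowest in the first bin and had no steady course after it.

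**Figure D4:**
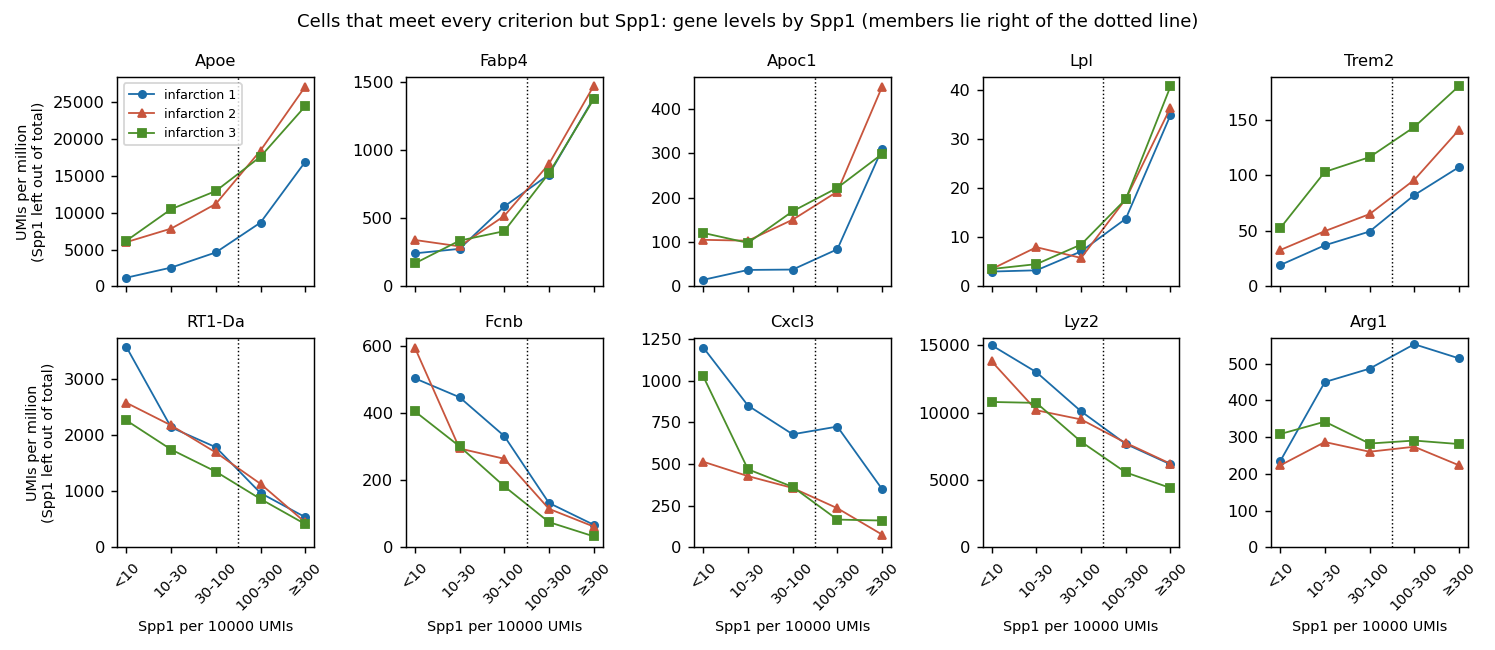
Levels of 10 genes, in CPM with Spp1 left out, in 5 bins of Spp1 per 10000 UMIs, for cells that meet all other criteria, with 1 line for each infarction library. Members lie to the right of the dotted line. Apoe, Fabp4, Apoc1, Lpl and Trem2 climb across it and RT1-Da, Fcnb, Cxcl3 and Lyz2 descend, while Arg1 has no steady course.

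The lists showed the same pattern between the highest bin and the bin just under the threshold. Of 5575 genes at 10 CPM or more, 32.2% were higher in the highest bin in all 3 libraries and 27.8% lower. For the lysosome list these were 19 and 2 of 23 genes, for the respiratory chain 18 and 0 of 19 and for PPAR and fatty acid oxidation 9 and 2 of 13. For efflux, a list that includes the stated marker Apoc1, they were 8 and 2 of 13. For lipid droplets they were 2 and 1 of 7, a share of higher genes (28.6%) below that of all genes. All 5 MHC class II genes and all 7 proliferation genes were lower in every library, as were 7 of 10 cholesterol synthesis genes and 13 of 21 hypoxia and glycolysis genes.

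The members were not uniform among themselves. Clustering the members alone gave 7 subgroups, called here by their leading genes, with no test because the genes that define them also made them. Subgroup 1 held 1198 cells (30.9% of members) and was led by the metallothionein Mt1 (548 CPM against 34.5 in the other members), Cxcl3 (922 against 69.5), the nitric oxide synthase Nos2 (39.2 against 2.64) and Bnip3 (429 against 83.1). Its summed level of iron and haem genes was 83321 CPM against 32163 in the other members, that of cytokines and chemokines 20265 against 7822 and that of hypoxia and glycolysis genes 13137 against 7641, while efflux genes summed to 9359 against 23357. Over all members Fth1 had a mean of 41073 and Apoe of 17419 normalised CPM in the monocyte-like comparison. The iron and efflux sums, here and below, therefore rest largely on 1 gene each and do not describe whole lists. It took 50.2% of the members in infarction 1, 22.6% in infarction 2 and 20.5% in infarction 3.

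Subgroup 2 (964 cells, 24.9%) was led by Csf1 (125 CPM against 43.5), Rgcc (939 against 376), Cd9 (224 against 95.1) and Apoc1 (443 against 193). It had the highest median Spp1 of the subgroups, 408 per 10000 UMIs, and its efflux genes summed to 27144 CPM. Subgroup 3 (783 cells, 20.2%) was led by Mx1, the phospholipid transfer protein Pltp (202 CPM against 56.0), the transferrin receptor Tfrc (117 against 40.1) and Trem2 (218 against 83.9), with efflux genes at 26656 CPM and lysosomal genes at 31512 CPM. It made up 36.7% of the members in infarction 3 and 13.02% and 10.8% in infarction 1 and 2. Its cells were the deepest, with a median of 19740 UMIs, and the part of depth in the subgroup was not tested.

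Subgroup 4 (723 cells, 18.7%) was led by the MHC class II genes RT1-Db1 (1590 CPM against 110), RT1-Ba (796 against 57.4) and RT1-Da (2482 against 216) with Cd74, and by Mmp12 (282 against 88.1). It formed 13.6%, 25% and 17.2% of the members in infarction 1, 2 and 3, and was most frequent in infarction 2. The MHC class II list summed to 9778 CPM in this subgroup and to 938 CPM in the other members.

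The remaining 207 members (5.34%) carried genes of other cells. Subgroup 5 (92 cells) was led by Selenom, Sparc, the C1q genes, Anxa3 and Mki67, subgroup 6 (78 cells) by S100a9, Il1r2 and G0s2, genes of neutrophils, and subgroup 7 (37 cells) by haemoglobin and the endothelial genes Cldn5 and Flt1. A doublet score above 0.25 marked 15.2%, 53.8% and 18.9% of their cells, against 0.104% to 1.11% in the 4 large subgroups. Leaving these 207 cells out, an alternative chosen after seeing the data, gave 1704 genes higher and 1872 lower against monocyte-like cells and 3439 and 3688 against microglia-like cells.

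**Figure D5:**
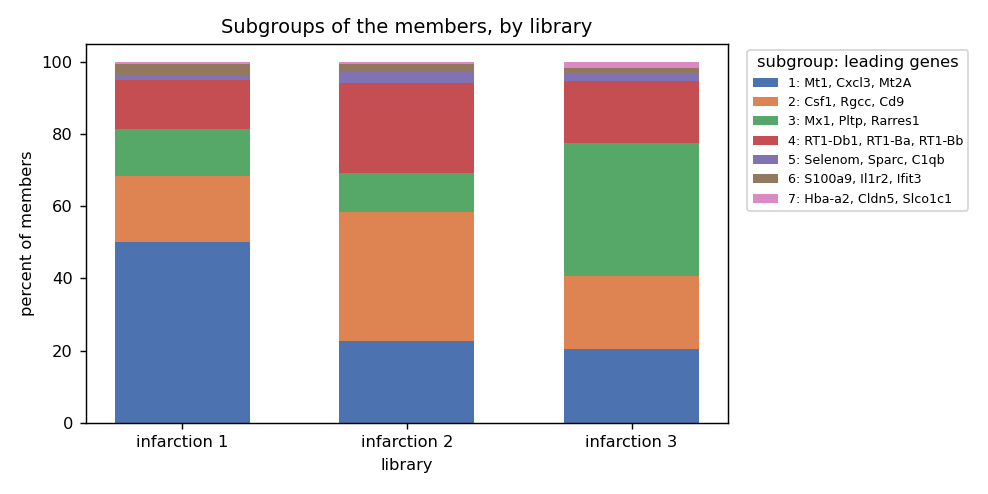
Stacked bars give the percent of members in each of 7 subgroups in infarction 1, 2 and 3, with 3 leading genes named for each. Subgroup 1 takes 50.2% of the members in infarction 1 and 20.5% in infarction 3, and subgroup 3 takes 36.7% in infarction 3.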

How the data were processed

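UMI counts per gene and cell barcode were measured in 3 sham and 3 infarction libraries. The authors deposited count matrices without normalisation. Cell Ranger 3.1.0, CASAVA 1.8 and Seurat 2.3.4 are listed in the submitters' processing notes with no role for each, and the genome build is not given in the sources used here. Filters on cells left 38685 of 44011 barcodes. Each of the 121 symbols with several identifiers went to the one with the most UMIs.

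The members, comparison sets and gene lists were chosen with earlier results of these data known. Counts were summed per library and set and fitted with edgeR 4.0.16 (quasi-likelihood test, robust, TMM, filterByExpr) in R 4.3.3. Library was a block, because both sets come from the same library. Sets under 20 cells in a library left that library out. P-values were adjusted over all genes (Benjamini-Hochberg). The fit was tested on simulated data. DESeq2 1.42.0 was an alternative. Doublet scores, principal components and Leiden clusters (resolution 0.5, 1000 variable genes, 20 components, 15 neighbours) came from scanpy 1.11.5. Sets held 747603 to 21967848 UMIs per library in the fits.

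Genes were named in 3 ways. The first took, among genes called at a mean of at least 20 normalised CPM in the higher set, in the same direction in every library and with no overlap between sets, the 10 largest rises and falls against monocyte-like cells and 6 and 6 in the other comparisons. The second took up to 4 genes of each list with the smallest p, whether or not they were called, overlapped or reached that level. The third took the stated markers. For the first, unnamed gene models, ribosomal protein genes and mitochondrially encoded genes were passed over. The subgroup and bin examples were chosen after their values were seen. No column of the files was left unmapped to a sample. A few genes that the naming rule picked are not reported here.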

Additional observations from a re-analysis of the deposited data

How the results depend on the processing

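Counts of called genes against monocyte-like cells stayed within 1.5 times of the main counts under all alternatives, planned or added. Leaving out 1 library at a time gave 1261 to 1555 genes higher and 1237 to 1720 lower there, 3052 to 3366 higher and 3079 to 3553 lower against microglia-like cells, and a mean share of members of 19.5% to 21.3%. Without TMM factors the microglia-like comparison gave 1868 higher and 5750 lower. Without the library as replicate block the pairs of counts were 1615 and 1709 against monocyte-like cells, 3113 and 3324 against microglia-like cells and 0 and 80 against the interferon set, and the named genes not called without it are given beside their values.

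Against the interferon set the 17 genes higher in the members became 1 with DESeq2, 8 without TMM, 7 with doublets removed, 7 with at most 10% mitochondrial UMIs, 11 with at least 2000 UMIs, 27 without cells holding Mki67 or Top2a and 0 without cells holding UMIs of other cell types. The 233 lower genes became 136 with DESeq2 and 140 without cells holding UMIs of other cell types. For the settings that remove cells, fewer cells enter by construction, and the cause of the other changes was not tested. Leaving out 1 of its 2 libraries could not be fitted. With infarction 2 added, chosen after seeing the data, 22 were higher and 248 lower. The share of members was 24.5% with at least 2000 UMIs and 13.1% with doubled thresholds. No called gene named in the text changed direction under any alternative.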
